A study of Mus musculus with 4 samples.

Results

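This section describes the Schwann cell and myelin genes Mbp, Mal, S100b, Ngfr, Sox10, Egr2, Prx and Cnp in the mammary gland of mice without Mt1-mmp. The 8 genes are markers of peripheral nerve glia, listed by name with earlier results of these data known and not by a measured threshold. A probe set assigned to 1 gene was at hand for 7 of them, with 16 probe sets in all, out of 17097 genes on the array. Prx was not analysed here. The brightest probe set of each gene, by its mean over all arrays, is given first. All 7 had a mean above the median of all probe sets (4.94 on the log2 scale), which was the limit for entering the test of 11078 genes.

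RNA of whole inguinal mammary glands was hybridised to 4 Affymetrix arrays, 2 from Mt1-mmp(-/-) mice and 2 from their Mt1-mmp(+/+) littermates. All mice were 10 days old and of an outbred Swiss Black stock. The knockout was global, so nerve, fat, epithelium and skin all lacked the protease, and the intact gland was homogenised with every cell type in it. Values are log2 expression after RMA, which equalises the arrays, and precision is limited by having only 4 of them. In such tissue, fewer cells of a type and less RNA per cell cannot be told apart. The targeted gene, listed as Mmp14, had 5.83 and 5.68 in the Mt1-mmp(-/-) arrays, against 8.92 and 8.73 in the Mt1-mmp(+/+) arrays.

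Schwann cells are the glia of peripheral nerves. They wrap larger axons in myelin, a stack of compacted membrane rich in lipid and held together by proteins such as myelin basic protein, while Remak Schwann cells surround small axons without myelin. Sox10 keeps cells in the Schwann lineage and, with Egr2, switches on the myelin genes. The gland and the skin above it are supplied by small sensory and sympathetic nerves. S100b and Ngfr, which are commonly used to stain Schwann cells, are not confined to them: adipocytes contain S100b protein, and stromal cells carry the receptor encoded by Ngfr.

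The myelin genes Mbp and Mal were higher in both Mt1-mmp(-/-) arrays, by 1.77-fold and 1.82-fold, and the lineage regulator Sox10 was higher by 1.64-fold. Cnp was higher by a smaller amount, 1.21-fold, and Egr2 overlapped between the genotypes. The 2 genes that also mark fat or stroma went the other way, with S100b 4.38-fold and Ngfr 1.50-fold lower. None of the 7 genes passed the test over all genes, so these are measured differences that missed the threshold. With limma and Benjamini-Hochberg adjustment at 0.05, 0 of the 11078 genes passed (0% called), while without adjustment a p under 0.05 was reached by 1074 genes that were higher and 1337 that were lower. That unadjusted limit was met by 5 of the 7 genes, beside 21.8% of all genes tested. The groups did not overlap for 6 of the 7, 4 higher and 2 lower, beside 58.8% of all genes tested. By direction, 26.3% of all genes were higher and 32.5% lower without overlap.

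**Figure D1:**
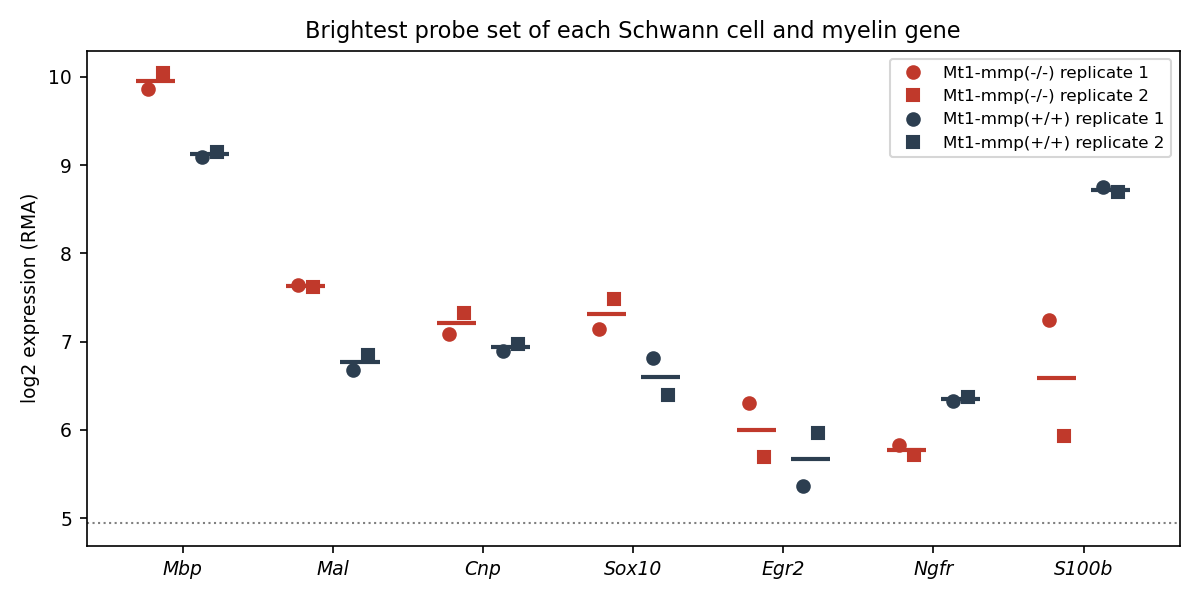
Log2 expression (vertical axis) of the brightest probe set of each of 7 Schwann cell and myelin genes in the 2 Mt1-mmp(-/-) arrays (red, left) and the 2 Mt1-mmp(+/+) arrays (dark, right). Circles and squares are replicates 1 and 2, horizontal bars are group means and the dotted line is the brightness limit of 4.94. Mbp, Mal, Cnp and Sox10 lie higher and Ngfr and S100b lower in both Mt1-mmp(-/-) arrays, while Egr2 overlaps.

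The promoters of Mal, Cnp and S100b are shown because Mal was higher, S100b was lower, and Cnp alone among the members with an entry held the short sequence bound by Sox proteins. Each run is the 250 bases before the gene's start in the RefSeq promoter table of GRCm38.p6, written 5′ to 3′ on the gene's strand. They lie at chr2:127656696-127656945 on the minus strand for Mal, at chr11:100574689-100574938 on the plus strand for Cnp and at chr10:76253586-76253835 on the plus strand for S100b. Capitals mark the Sox core ACAAAG, searched on both strands.
Mal: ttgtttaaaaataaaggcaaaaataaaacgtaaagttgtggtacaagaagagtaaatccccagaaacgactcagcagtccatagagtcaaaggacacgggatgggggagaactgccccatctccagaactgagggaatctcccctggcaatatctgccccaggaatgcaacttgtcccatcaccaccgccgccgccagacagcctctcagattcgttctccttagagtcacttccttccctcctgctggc
Cnp: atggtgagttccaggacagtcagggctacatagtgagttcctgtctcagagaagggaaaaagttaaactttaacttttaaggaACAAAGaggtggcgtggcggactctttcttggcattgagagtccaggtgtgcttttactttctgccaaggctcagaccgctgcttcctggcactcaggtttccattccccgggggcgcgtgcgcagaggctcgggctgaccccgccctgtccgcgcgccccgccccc
S100b: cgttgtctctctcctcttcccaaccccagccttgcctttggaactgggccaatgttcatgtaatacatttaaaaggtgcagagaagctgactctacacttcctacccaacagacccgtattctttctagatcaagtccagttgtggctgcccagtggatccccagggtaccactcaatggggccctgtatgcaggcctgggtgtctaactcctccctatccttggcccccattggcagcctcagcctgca
The Cnp match begins 167 bases before the start. Over windows of 300 bases, which run 50 bases past the start, the core was found in 1 of 10 windows of the 6 genes with an entry, and in 18.7% of all 32851 windows. The Egr motif GCGTGGGCG, on both strands, was found in 0 of the 10 windows and in 0.612% of all. These windows give only the letters next to the start and say nothing of binding.

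Myelin basic protein, encoded by Mbp, sits on the inner face of the myelin membrane and holds its layers together. Mbp had 9.86 and 10.04 in the Mt1-mmp(-/-) arrays, against 9.10 and 9.15 in the Mt1-mmp(+/+) arrays. Both Mt1-mmp(-/-) values lay above both others, and the gap between genotypes was wider than the gap between replicates. The difference was 0.83 ± 0.11 in log2 units (SE, n = 2 in each genotype), with a limma adjusted p of 0.105. A dimmer Mbp probe set had 6.25 and 5.37 in the Mt1-mmp(-/-) arrays, against 5.50 and 5.46 in the Mt1-mmp(+/+) arrays. It was high in Mt1-mmp(-/-) replicate 1 only, and its groups overlapped (0.33 ± 0.32).

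Mal encodes a small membrane protein of lipid-rich domains, found in myelin and also in the surface membrane of many epithelia. It had 7.64 and 7.62 in the Mt1-mmp(-/-) arrays, against 6.68 and 6.85 in the Mt1-mmp(+/+) arrays. The Mt1-mmp(-/-) pair lay close together and above the Mt1-mmp(+/+) pair, with a difference of 0.87 ± 0.11 and an adjusted p of 0.105 in limma. Its second probe set was also higher in both Mt1-mmp(-/-) arrays, with 6.88 and 7.18 in the Mt1-mmp(-/-) arrays, against 6.56 and 6.70 in the Mt1-mmp(+/+) arrays (0.40 ± 0.14).

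Cnp encodes a phosphodiesterase of the uncompacted parts of the myelin sheath. It had 7.09 and 7.32 in the Mt1-mmp(-/-) arrays, against 6.89 and 6.97 in the Mt1-mmp(+/+) arrays. The groups did not overlap, but the gap between them was smaller than that between the Mt1-mmp(-/-) replicates. The difference was 0.27 ± 0.12, with a limma adjusted p of 0.295. The second Cnp probe set overlapped, with a difference of 0.05 ± 0.08.

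Sox10, the lineage transcription factor, had 7.15 and 7.49 in the Mt1-mmp(-/-) arrays, against 6.82 and 6.39 in the Mt1-mmp(+/+) arrays. The groups did not overlap, and the replicates within each genotype lay further apart than for Mbp or Mal. The difference was 0.71 ± 0.21, with a limma adjusted p of 0.193. A dimmer set overlapped (0.17 ± 0.14), and a further set, with a mean of 4.25, lay below the brightness limit and differed by -0.01.

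Egr2 encodes the zinc finger factor that drives myelination and is also an early response gene in other cells. It had 6.30 and 5.70 in the Mt1-mmp(-/-) arrays, against 5.36 and 5.97 in the Mt1-mmp(+/+) arrays. The groups overlapped, with a wider spread inside each genotype than between their means. The difference was 0.33 ± 0.32 (limma adjusted p = 0.566), and a dimmer set likewise overlapped (0.41 ± 0.38).

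S100b encodes a calcium-binding protein of the EF-hand family. It had 7.24 and 5.93 in the Mt1-mmp(-/-) arrays, against 8.75 and 8.69 in the Mt1-mmp(+/+) arrays. Both Mt1-mmp(-/-) arrays were low, and they differed from each other by 1.31 while the Mt1-mmp(+/+) arrays differed by 0.06. The difference was -2.13 ± 0.47, with a limma adjusted p of 0.149. The second S100b probe set showed the same order, with 6.11 and 4.38 in the Mt1-mmp(-/-) arrays, against 7.58 and 7.60 in the Mt1-mmp(+/+) arrays (-2.35 ± 0.62). Its value in Mt1-mmp(-/-) replicate 2 lay below the brightness limit, where RMA compresses differences.

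Ngfr encodes the low-affinity neurotrophin receptor p75, carried by immature and Remak Schwann cells. It had 5.82 and 5.72 in the Mt1-mmp(-/-) arrays, against 6.33 and 6.38 in the Mt1-mmp(+/+) arrays. The replicates of each genotype lay close together and the groups did not overlap. The difference was -0.58 ± 0.10, with a limma adjusted p of 0.120. The other Ngfr probe sets had means of 4.13 and 3.97, below the brightness limit, and differed by 0.01 and -0.0048.

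**Figure D2:**
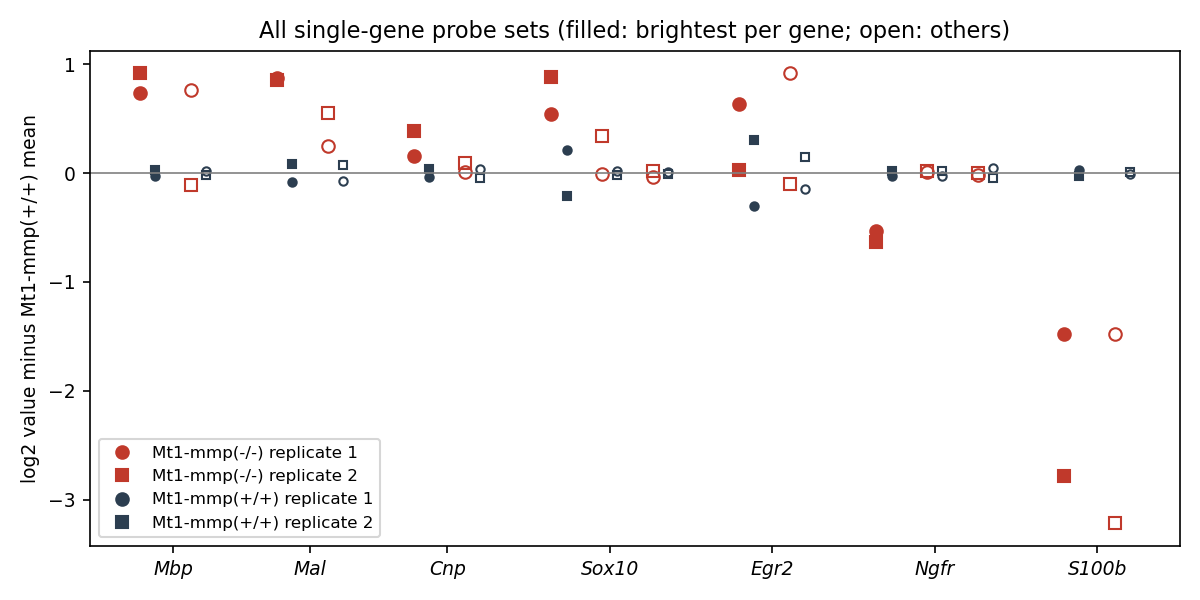
Log2 value of each array minus the Mt1-mmp(+/+) mean (vertical axis) for all 16 single-gene probe sets, grouped by gene, with Mt1-mmp(-/-) arrays in red and Mt1-mmp(+/+) arrays in dark. Filled symbols are the brightest set of a gene and open symbols the others. Both S100b sets and both Mal sets keep their direction in both Mt1-mmp(-/-) arrays, while the other sets of Mbp, Cnp, Sox10, Egr2 and Ngfr overlap with the Mt1-mmp(+/+) arrays.

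Of the 9 further probe sets, 2 were thus without overlap, 1 each of Mal and S100b, beside 48.2% of all single-gene probe sets. The opposite directions of the myelin genes and of S100b and Ngfr are read side by side from the same arrays, and the difference between the genes was not tested.

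The calls depended on the Mt1-mmp(-/-) arrays. Without Mt1-mmp(-/-) replicate 1 limma passed 6 of the 7 genes, all but Egr2, where 37.7% of all genes passed. Without Mt1-mmp(-/-) replicate 2 it passed 4, namely Mbp, Mal, S100b and Ngfr, where 11.7% of all genes passed. The remaining array was then assumed to vary like the Mt1-mmp(+/+) pair. Without Mt1-mmp(-/-) replicate 1 or 2, the log2 difference of Mbp was 0.92 or 0.73 and that of Mal 0.85 or 0.88. Without Mt1-mmp(+/+) replicate 1 or 2, that of Mbp was 0.80 or 0.85 and that of Mal 0.78 or 0.95. In the same order, the differences of S100b were -2.79, -1.48, -2.10 and -2.16, and those of Ngfr -0.64, -0.53, -0.61 and -0.56. Those of Cnp were 0.39, 0.16, 0.23 and 0.31. Sox10 stood at 0.88, 0.54, 0.92 and 0.50 in that order. Egr2 varied most in proportion to its size, at 0.03 or 0.64 without Mt1-mmp(-/-) replicate 1 or 2, and 0.03 or 0.64 without Mt1-mmp(+/+) replicate 1 or 2.

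The Mt1-mmp(-/-) arrays also differed in tissue that is not gland. The mean log2 level of 10 skeletal muscle markers was 4.69 and 11.0 in the Mt1-mmp(-/-) arrays, against 4.68 and 6.79 in the Mt1-mmp(+/+) arrays. That of 11 epidermis and hair follicle markers was 8.81 and 4.82 in the Mt1-mmp(-/-) arrays, against 5.58 and 6.42 in the Mt1-mmp(+/+) arrays. Muscle thus stood out in Mt1-mmp(-/-) replicate 2 and skin in Mt1-mmp(-/-) replicate 1. Mbp and Mal were higher in both. Between Mt1-mmp(-/-) replicate 1 and Mt1-mmp(+/+) replicate 1, whose muscle markers differed by 0.01, Mbp was higher by 0.76 and Mal by 0.96, while the skin markers were higher by 3.24. Between Mt1-mmp(-/-) replicate 2 and Mt1-mmp(+/+) replicate 1, where the skin markers were lower by 0.75 and the muscle markers higher by 6.34, Mbp was higher by 0.94 and Mal by 0.94. Against Mt1-mmp(+/+) replicate 2, Mbp was higher by 0.71 in Mt1-mmp(-/-) replicate 1 and by 0.89 in Mt1-mmp(-/-) replicate 2, and Mal by 0.79 and 0.77. The skin markers differed by 2.39 and -1.60 and the muscle markers by -2.10 and 4.23 in the same comparisons. Cnp and Sox10 were higher by 0.20 and 0.33 in the first pair, of replicate 1 in both genotypes, and by 0.43 and 0.67 between Mt1-mmp(-/-) replicate 2 and Mt1-mmp(+/+) replicate 1. These are single arrays with no test, and the part of muscle and skin in the values was not tested.

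Epithelial markers were mostly higher too. Epithelium can express Mal, and mammary epithelium and pigment cells can express Sox10. The mean level of 8 basal markers was 7.01 and 6.19 in the Mt1-mmp(-/-) arrays, against 5.91 and 5.86 in the Mt1-mmp(+/+) arrays, and 7 of 8 were higher in the mean. That of 10 luminal markers was 7.70 and 7.34 in the Mt1-mmp(-/-) arrays, against 7.21 and 6.39 in the Mt1-mmp(+/+) arrays, with 9 of 10 higher. In the Mt1-mmp(-/-) pair Sox10 was higher and the luminal list lower in replicate 2, while in the Mt1-mmp(+/+) pair both were lower in replicate 2. The mean of 8 melanocyte markers was 5.98 and 5.73 in the Mt1-mmp(-/-) arrays, against 5.16 and 5.31 in the Mt1-mmp(+/+) arrays, with 4 of 6 tested markers higher. Mlana, a melanosome gene, had 6.81 and 6.88 in the Mt1-mmp(-/-) arrays, against 4.31 and 4.98 in the Mt1-mmp(+/+) arrays. The Mt1-mmp(+/+) mean of Mlana, 4.65, lay below the brightness limit, so it entered the test only through its Mt1-mmp(-/-) values. The pigment cell regulator gene Mitf, active in other cells too, had 8.24 and 8.53 in the Mt1-mmp(-/-) arrays, against 6.81 and 6.91 in the Mt1-mmp(+/+) arrays. Smaller were the differences of Pmel (0.58 ± 0.22), without overlap, and Dct (0.53 ± 0.37), which overlapped and was high in Mt1-mmp(-/-) replicate 1 (6.78) only. Slc45a2 (-0.05 ± 0.12) and Oca2 (-0.09 ± 0.13) also overlapped, and the pigment enzyme genes Tyr and Tyrp1 had means below the brightness limit. The part of these cells in the values of Mal and Sox10 was not tested.

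S100b was read beside the fat markers and Ngfr beside the stromal ones. The mean level of 7 white adipocyte markers was 10.2 and 9.79 in the Mt1-mmp(-/-) arrays, against 11.0 and 11.0 in the Mt1-mmp(+/+) arrays. Of 6 tested, 4 were lower, led by the leptin gene Lep (-5.00 ± 0.89) and the triglyceride synthesis gene Dgat2 (-2.19 ± 0.17). The adiponectin gene Adipoq (0.04 ± 0.12) and the fatty acid carrier gene Fabp4 (-0.07 ± 0.11), which define the cell type as well, overlapped between genotypes. As for S100b, Lep was lower in Mt1-mmp(-/-) replicate 2 (4.48) than in Mt1-mmp(-/-) replicate 1 (6.95). Dgat2 ran the other way, with 9.78 in Mt1-mmp(-/-) replicate 2 and 9.40 in Mt1-mmp(-/-) replicate 1. The 10 fibroblast markers averaged 9.45 and 9.19 in the Mt1-mmp(-/-) arrays, against 9.58 and 9.44 in the Mt1-mmp(+/+) arrays, and 7 of them were lower, with Thy1, a surface protein of fibroblasts and neurons, at -1.18 ± 0.43. The 7 pericyte and smooth muscle markers averaged 9.15 and 9.69 in the Mt1-mmp(-/-) arrays, against 9.42 and 9.32 in the Mt1-mmp(+/+) arrays. The part of these cells in the values of S100b and Ngfr was not tested.

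Markers of neurons and of oligodendrocytes, the myelin-forming glia of the brain, mostly lay below the brightness limit. The mean level of 11 axon and neuron markers was 4.09 and 4.15 in the Mt1-mmp(-/-) arrays, against 4.11 and 4.10 in the Mt1-mmp(+/+) arrays, and 10 of the 11, all but Stmn2, lay below the limit. Neuronal transcripts reside largely in cell bodies outside the gland, so the list says little of axons. Of 8 oligodendrocyte markers 6 lay below the limit, all but Mobp and Opalin, and the mean of the 8 was 4.29 and 4.35 in the Mt1-mmp(-/-) arrays, against 4.27 and 4.35 in the Mt1-mmp(+/+) arrays. Mog, which marks central and not peripheral myelin, had 3.70 and 3.73 in the Mt1-mmp(-/-) arrays, against 3.69 and 3.74 in the Mt1-mmp(+/+) arrays.

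**Figure D3:**
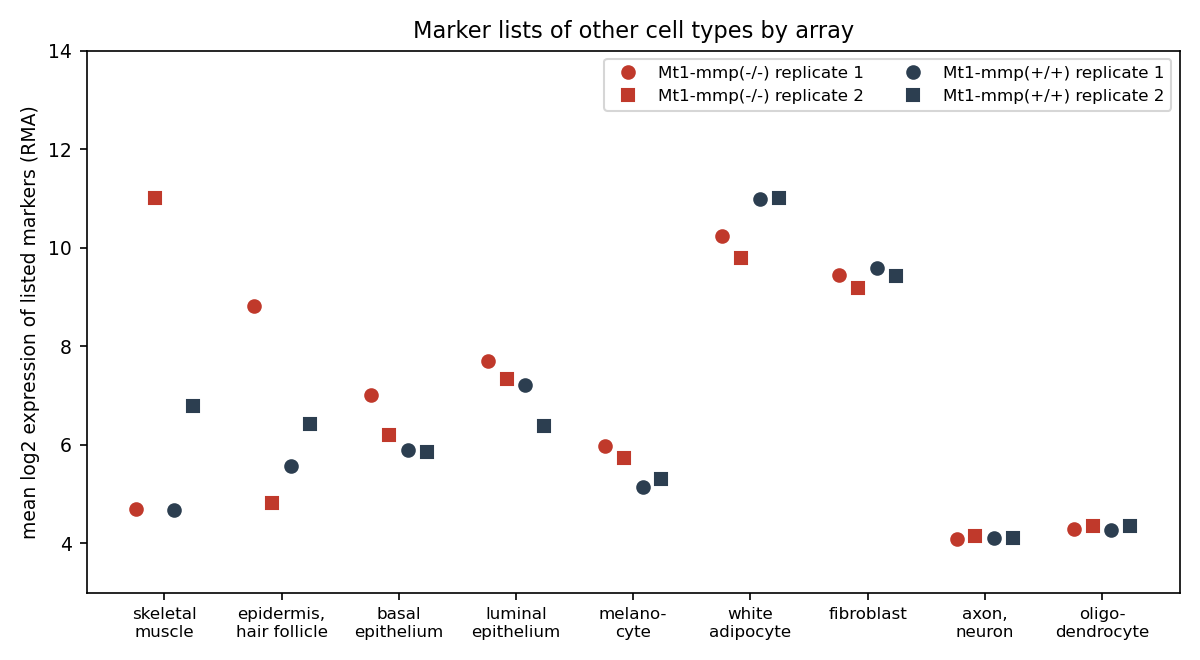
Mean log2 expression (vertical axis) of the markers of 9 other cell types in each array, with the 2 Mt1-mmp(-/-) arrays (red) left of the 2 Mt1-mmp(+/+) arrays (dark). Skeletal muscle is high in Mt1-mmp(-/-) replicate 2 and epidermis and hair follicle in Mt1-mmp(-/-) replicate 1, while axon, neuron and oligodendrocyte markers stay between 4.09 and 4.35.

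Other genes of the Schwann cell and of myelin were taken from 6 lists of 62 genes, of which 54 had a single-gene probe set and 46 were tested. Of these 46, 29 were higher in the mean and 17 lower, with a median difference of 0.15, where the median of all genes tested was -0.02. The groups did not overlap for 24 higher and 11 lower genes, beside 26.3% and 32.5% of all genes tested. At an unadjusted limma p under 0.05 there were 14 higher and 5 lower, beside 9.69% and 12.1% of all genes tested, and after adjustment 0 passed. The lists were chosen with earlier results of these data known, so these counts are description only.

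In compact myelin all 5 tested genes were higher without overlap, as were 26.3% of all genes tested, with a median of 0.36. Ncmap, which encodes a membrane protein of Schwann cell myelin, had 6.79 and 7.12 in the Mt1-mmp(-/-) arrays, against 6.12 and 5.94 in the Mt1-mmp(+/+) arrays (0.92 ± 0.16, limma adjusted p = 0.123). The tetraspanin gene Cd9, which many cell types express, differed by 0.79 ± 0.12. Smaller differences were those of the fatty acid binding gene Pmp2 (0.36 ± 0.17), the plasmolipin gene Pllp (0.28 ± 0.09) and Pmp22 (0.15 ± 0.10), whose dosage is altered in inherited neuropathy. Pmp22 was the brightest of the list, with a mean of 11.4 against 6.49 for Ncmap. The part of other cells in its value was not tested. Among contacts and channels 7 of 8 were higher, with a median of 0.19. Ank3, which encodes the ankyrin that anchors channels at nodes and also occurs in epithelium, had 7.35 and 8.16 in the Mt1-mmp(-/-) arrays, against 6.42 and 6.22 in the Mt1-mmp(+/+) arrays (1.43 ± 0.31), with further sets at 1.10, 0.42 and -0.06. The adhesion gene Cadm4 differed by 0.56 ± 0.11, Drp2, a partner of periaxin, by 0.28 ± 0.16 and Cldn5, which chiefly marks vessels, by 0.24 ± 0.13. The myelin-associated glycoprotein gene Mag had 6.29 and 6.65 in the Mt1-mmp(-/-) arrays, against 6.34 and 6.33 in the Mt1-mmp(+/+) arrays, and overlapped. The connexin gene Gjb1 lay below the brightness limit, with 4.29 and 4.33 in the Mt1-mmp(-/-) arrays, against 4.20 and 4.38 in the Mt1-mmp(+/+) arrays.

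The lipids of myelin are made by enzymes that other tissues use as well. Ugt8a, whose product makes galactosylceramide, had 6.55 and 6.40 in the Mt1-mmp(-/-) arrays, against 5.43 and 5.40 in the Mt1-mmp(+/+) arrays (1.06 ± 0.10, limma adjusted p = 0.101). Its dimmer probe set, with a mean of 4.87 below the limit, differed by -0.09. Fa2h, which hydroxylates the fatty acids of these lipids and is also active in skin, differed by 0.61 ± 0.17. The sterol synthesis genes of the list split, with Fdft1 at 0.83 ± 0.12 and Hmgcs1 at -1.08 ± 0.15. The Hmgcs1 set was dim, with a mean of 5.07 against 8.21 for Fdft1. Its Mt1-mmp(-/-) values, 4.65 and 4.41, lay below the brightness limit, which Hmgcs1 passed only through its Mt1-mmp(+/+) values. Of the 6 lipid genes tested, 3 were higher and 3 lower.

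Among regulators 5 of 9 tested genes were higher and 4 lower, all without overlap, beside 58.8% of all genes tested in either direction. Pou3f1, which encodes the factor Oct6 that precedes myelination in Schwann cells and is also made in epidermis, had 5.91 and 5.85 in the Mt1-mmp(-/-) arrays, against 4.68 and 4.62 in the Mt1-mmp(+/+) arrays (1.23 ± 0.09, limma adjusted p = 0.101). Both Mt1-mmp(+/+) values lay below the brightness limit, so Pou3f1 entered the test only through its Mt1-mmp(-/-) values. Its other set lay below the limit and differed by 0.20. The Egr2 co-regulator genes Nab2 (0.27 ± 0.09) and Nab1 (-0.29 ± 0.10) went opposite ways, while other Nab1 sets overlapped, at -0.09 and 0.04. Jun, which opposes myelination, differed by -0.38 ± 0.13. Zeb2, which represses inhibitors of myelination, differed by -0.61 ± 0.23, while other Zeb2 sets gave 0.14, 0.18 and -0.66.

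Of 9 tested ligands and receptors 6 were higher. Erbb3, the neuregulin receptor of Schwann cells and also of luminal epithelium, had 7.92 and 7.54 in the Mt1-mmp(-/-) arrays, against 6.85 and 6.54 in the Mt1-mmp(+/+) arrays (1.04 ± 0.20). Its partner Erbb2 differed by 0.40 ± 0.12. The laminin genes Lama2 (0.31 ± 0.14) and Lamb1 (0.19 ± 0.12) differed less, and other Lamb1 sets gave 0.13, -0.07 and -0.04. The laminin receptor gene Itga6 was lower (-0.52 ± 0.10), with a second set at -0.50.

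Immature and non-myelinating Schwann cell genes split into 3 higher and 6 lower, the median being -0.08. Scn7a, a sodium channel gene of Remak Schwann cells, had 9.11 and 9.29 in the Mt1-mmp(-/-) arrays, against 8.14 and 8.20 in the Mt1-mmp(+/+) arrays (1.03 ± 0.11, limma adjusted p = 0.102), with further sets at 1.11 and 0.30. The lipocalin gene Apod, made by nerve and stromal fibroblasts too, had 9.26 and 10.3 in the Mt1-mmp(-/-) arrays, against 8.47 and 8.49 in the Mt1-mmp(+/+) arrays (1.31 ± 0.39). Lower were the N-cadherin gene Cdh2 (-1.08 ± 0.25, and -0.78 in a second set) and the matrilin gene Matn2 (-0.92 ± 0.35). Gap43, a growth-associated gene, had 8.50 and 6.88 in the Mt1-mmp(-/-) arrays, against 8.16 and 8.05 in the Mt1-mmp(+/+) arrays, and overlapped, as did the adhesion gene Ncam1 at -0.08 ± 0.12. Other Ncam1 sets, all with means below the brightness limit, gave 0.20, 0.21, -0.02, 0.06 and 0.12.

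**Figure D4:**
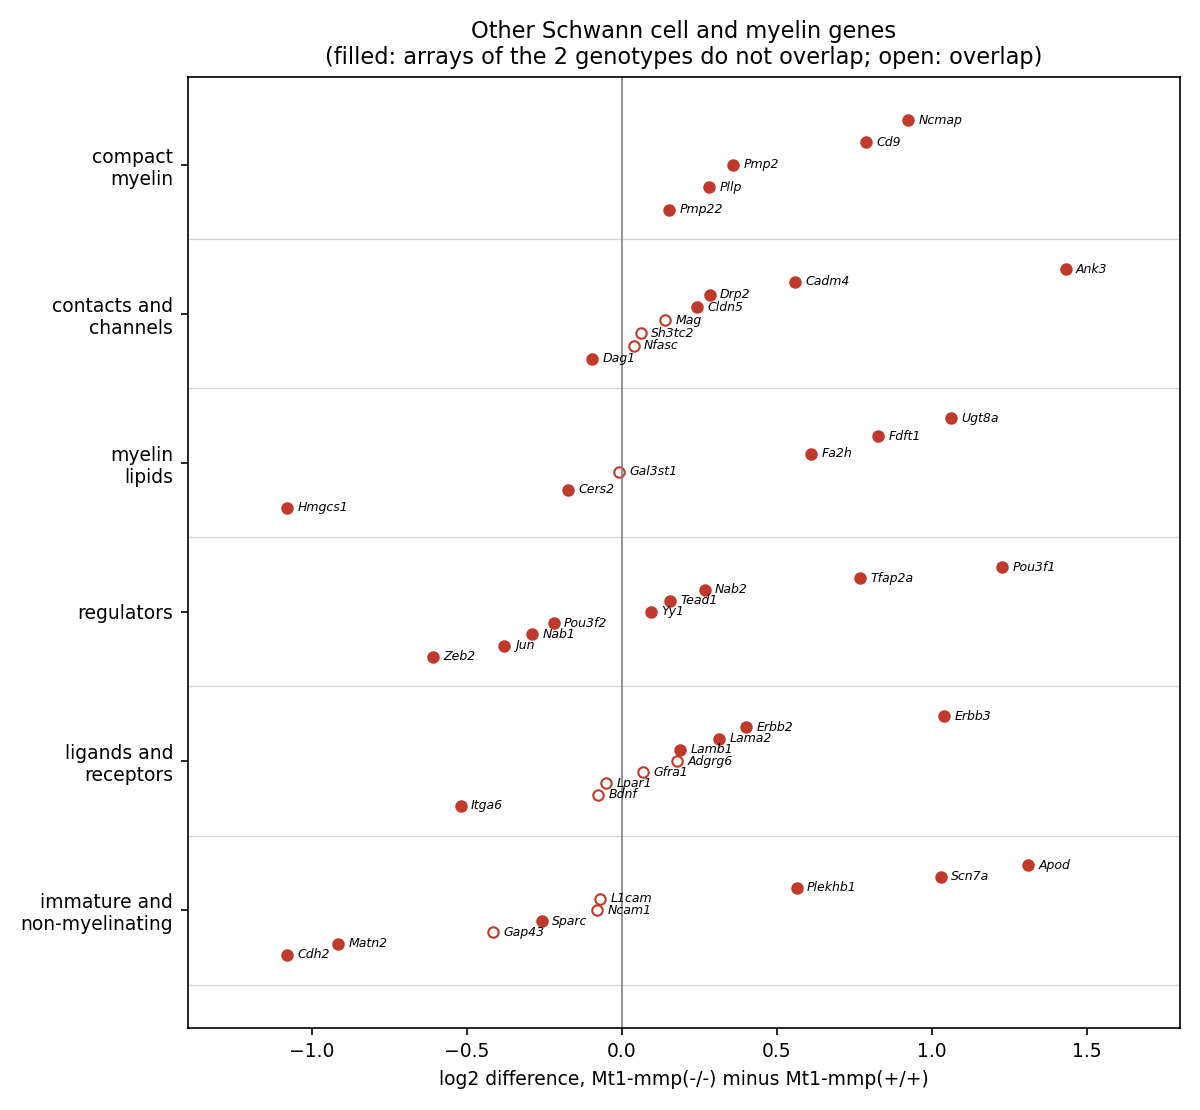
Log2 difference, Mt1-mmp(-/-) minus Mt1-mmp(+/+) (horizontal axis), of the tested genes of 6 lists, each point a gene by its brightest probe set. Filled points are genes whose arrays do not overlap between genotypes. All 5 compact myelin genes lie right of 0, while the immature and non-myelinating genes spread from -1.08 to 1.31.

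The genes nearest to Mbp in their pattern over the 4 arrays, by the root mean square difference of values centred on their own mean, were Adig (0.0335), Dhtkd1 (0.0373), Clk1 (0.0378), Mxi1 (0.0404) and Rere (0.0437). Adig, an adipocyte gene, had 11.3 and 11.4 in the Mt1-mmp(-/-) arrays, against 10.5 and 10.5 in the Mt1-mmp(+/+) arrays. Nearest to S100b were Tlcd3b (0.0868), Lpgat1 (0.0980), Prnd (0.100), Acp5 (0.216) and Il17d (0.223). Lpgat1, which encodes a lysophospholipid acyltransferase, had 9.69 and 8.55 in the Mt1-mmp(-/-) arrays, against 11.2 and 11.0 in the Mt1-mmp(+/+) arrays. With 4 arrays many genes share any given pattern, and these names describe likeness only.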

How the data were processed

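Per the submitters' processing notes, the authors used RMA and affy, with no version named. The deposited values are log2 expression, a scale read from the values. The labels' protocols describe a 3-prime labelling kit.

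The table held 45141 probe sets, of which 28898 had 1 gene in the platform annotation, 551 several and 15692 none. Of the first, 28689 matched a RefSeq gene and 0 symbols changed. The brightest probe set stood for a gene. Genes with a mean of at least 4.94 entered a comparison of the genotypes in limma (version 3.58.1, R 4.3.3), using lmFit and eBayes without covariates and Benjamini-Hochberg adjustment at 0.05. Single probe sets were fitted over all 28898. SE is limma's moderated standard error.

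The members and lists were chosen with earlier results of these data known. Of each list, a few well-known genes and up to 4 others with the smallest p are named, as are the 5 genes nearest to Mbp and to S100b. The labels call the samples biological replicates. The test was checked on simulated data.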

Additional observations from a re-analysis of the deposited data

How the results depend on the processing

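Another 15 settings were tried. They varied the brightness limit (none, or the 75th percentile), how a gene's probe sets were used (their mean, or without sets of the _a_, _s_ or _x_ kind), the scaling (median centring, cyclic loess or quantile), the variance model (trend, robust or array weights) and the arrays used, and 1 had a replicate block. No member changed direction in a setting that measured it. Mbp, Sox10 and Cnp have only probe sets of the _a_ kind, Ngfr and Egr2 lay under the stricter limit, and Ngfr also lay under the limit when its probe sets were averaged. In the settings with all 4 arrays 0 genes passed. With the replicate block 0 genes and 0 members passed. Same-numbered arrays correlated at -0.0885 in their deviations, and the labels do not say which animals shared a litter, so the numbers were not taken as pairs. With 1 array left out, the count ran from 0 to 4180 of all genes and from 0 to 6 members. Over all settings the log2 difference of Sox10 ran from 0.29 to 0.92 and that of Egr2 from 0.03 to 0.64. Values near the array floor, such as the dim sets of Ngfr and Sox10, limit what can be seen there.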
